A study of Mus musculus with 8 samples.

Results

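The paired receptors of myeloid cells examined in bone-marrow-derived macrophages were Tarm1, Oscar, Trem2, Pirb, Lilrb4a, Cd300lf, Cd300a, Sirpa with the adaptor gene Tyrobp. These 9 genes were taken by symbol out of the 17364 genes in the count files, and 8 of them passed the filter on low counts that left 12462 tested genes. The set was picked because Tarm1 had one of the largest differences between the genotypes, so the fold changes of the 9 genes in that contrast are given as a description, with no p-value. The macrophages carried the Sept2C111A allele or were wild-type, with 4 libraries in each group. The allele name places alanine instead of cysteine at residue 111 of septin 2, a cytoskeletal GTPase, and the series title sets the question in nitrosylated septin 2, inflammation and migration. Both groups were macrophages grown from mouse bone marrow and both were exposed for 24 h to 30 ng/ml TNF-α, so every value below is of the TNF-treated state. Mouse age, background strain and whether the 4 libraries of a group came from separate mice or cultures are not stated in the labels, and the p-values may then cover technical spread between libraries only.

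Paired receptors are families of related cell-surface proteins, often encoded side by side, in which some members activate the cell and others restrain it. Activating members have short cytoplasmic tails and signal through a partner such as DAP12, the product of Tyrobp, or the Fc receptor gamma chain, whose ITAM tyrosines recruit the kinase Syk. Inhibitory members carry ITIM tyrosines in their own tails and recruit the phosphatases SHP-1, SHP-2 and SHIP-1. In macrophages such pairs set how strongly the cell answers to lipids, collagen, apoptotic cells and other cells of the body.

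The 2 genotypes separated over all genes, and the Sept2C111A libraries were less alike. Library totals were 19543958 to 21288493 expected counts. On the first principal component, which held 45.1% of the variance, the Sept2C111A libraries lay at 0.866, 28.2, 36.6 and -1.97, and the wild-type libraries between -19.4 and -11.2. Sept2C111A libraries 2 and 3 therefore stood apart from the other 2 of their group. Fold changes were taken without them for most named genes. Where a fold change printed in the text moved by over 1.5 times, it is given that way as well. For Clu, App, Il34, Cd47, Adam17 and Tcirg1 only mean levels without them are given. The codon change cannot be seen in gene counts. Septin2 itself averaged 188 ± 18.7 CPM (reads scaled to a common normalized library total) in Sept2C111A and 226 ± 7.43 CPM in wild-type macrophages (SD, n = 4 each, as throughout), a log2 fold change of -0.27 ± 0.076 (SE) with an adjusted p = 0.063 in edgeR. The cell type label was checked against 11 macrophage markers, all of them detected, which summed to 21075 to 22912 CPM in Sept2C111A and 23197 to 24980 CPM in wild-type libraries. The highest of them was Lyz2, lysozyme, at 12366 ± 897 and 14365 ± 498 CPM in Sept2C111A and wild-type macrophages. Of the 11 fold changes, 6 were above 0. The 1 gene called was Fcgr1, named after its value was seen, beside 6.46% of all tested genes called. It was higher, at 193 ± 39.9 CPM in Sept2C111A against 84.9 ± 11.3 CPM in wild-type macrophages (adjusted p = 0.0011 in edgeR).

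Markers of other cells were also present. The 12 stromal markers, Col1a1 the most abundant, summed to 4367 to 5392 CPM in Sept2C111A and 5497 to 7137 CPM in wild-type libraries. Of the 11 tested, 4 were called lower in Sept2C111A, beside 3.03% lower among all tested genes. Their median log2 fold change was -0.40, and 0 of the 11 were above 0. Dendritic cell markers, 8 in the files and mostly Fscn1 (127 ± 12.8 against 172 ± 13.6 CPM), summed to 116 to 145 CPM in Sept2C111A and 159 to 189 CPM in wild-type libraries. The gap in that sum is therefore one in Fscn1. Zbtb46 averaged 1.66 and 2.14 CPM, and Batf3 2.65 and 2.50 CPM, in Sept2C111A and wild-type macrophages. Flt3, Xcr1, Ccr7, Clec9a and Siglech were at or below 0.811 CPM in every library. Neutrophil markers, 12 in the files, summed to 162 to 213 CPM in Sept2C111A and 127 to 165 CPM in wild-type libraries. Nearly all of it was Csf3r (186 ± 27.1 against 137 ± 18.5 CPM). Ly6g, Elane and Mpo had at most 1 read in any library after rounding, but S100a8, S100a9, Ngp and Cxcr2 passed the filter at low levels. S100a9 had 23 to 70 reads in Sept2C111A and 18 to 37 in wild-type libraries, and Ngp 8 to 47 and 6 to 15. Of the 5 neutrophil markers tested, 0 were called, beside 6.46% of all tested genes. Lymphocyte markers, Cd79b first, summed to 7.09 to 12.0 CPM and 7.25 to 9.61 CPM in Sept2C111A and wild-type libraries. Mast cell markers, Mcpt4 first, stayed at or below 0.331 CPM in Sept2C111A and 0.668 CPM in wild-type libraries, and erythroid markers, Hba-a1 first, at or below 4.16 and 2.67 CPM in Sept2C111A and wild-type libraries. The part of these cells in the receptor values was not tested. In bulk RNA, fewer cells of a type and less RNA per cell cannot be told apart.

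The start-site windows of the receptors are shown for Tarm1, the gene the set was picked for, Trem2, the receptor whose adaptor is in the set, and Cd300a, the abundant inhibitory receptor with the largest fold change. Each window runs from 250 bases before to 50 bases after a start site in RefSeq's GRCm38.p6 annotation, and 6 of the 9 genes matched by symbol (Tyrobp, Lilrb4a and Sirpa did not). For Tarm1, Cd300a and Cd300lf this start site lies inside the span of the gene and not at its outer end. Motif positions count from the start site of the window. The windows are chr7:3502575-3502874 on the minus strand for Tarm1, chr17:48346151-48346450 on the plus strand for Trem2 and chr11:114889791-114890090 on the plus strand for Cd300a. Sequences read 5′ to 3′ on the gene's strand, and capitals mark matches to the motifs named after them.
Tarm1: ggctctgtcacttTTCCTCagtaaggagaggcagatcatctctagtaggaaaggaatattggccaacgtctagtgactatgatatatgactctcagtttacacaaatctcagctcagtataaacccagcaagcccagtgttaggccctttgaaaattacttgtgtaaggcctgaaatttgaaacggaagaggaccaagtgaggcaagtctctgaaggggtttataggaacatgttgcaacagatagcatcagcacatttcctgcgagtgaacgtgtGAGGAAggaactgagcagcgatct
Trem2: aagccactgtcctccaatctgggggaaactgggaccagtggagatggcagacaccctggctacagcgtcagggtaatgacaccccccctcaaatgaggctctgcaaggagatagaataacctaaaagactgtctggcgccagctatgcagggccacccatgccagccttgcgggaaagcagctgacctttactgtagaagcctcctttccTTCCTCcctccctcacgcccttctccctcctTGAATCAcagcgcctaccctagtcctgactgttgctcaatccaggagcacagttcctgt
Cd300a: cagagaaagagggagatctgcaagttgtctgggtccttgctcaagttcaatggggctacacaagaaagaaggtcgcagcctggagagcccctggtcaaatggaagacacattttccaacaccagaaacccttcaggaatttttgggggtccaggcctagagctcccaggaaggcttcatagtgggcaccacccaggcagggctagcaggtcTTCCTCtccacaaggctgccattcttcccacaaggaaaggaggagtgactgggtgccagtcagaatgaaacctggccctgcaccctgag
Motifs were searched on both strands as plain letters: GAGGAA, a core of sites for the myeloid factor PU.1, TGANTCA for AP-1, GGG, 2 free bases, TT, 1 free base and CC for the kappaB factors, and GAAA, 2 free bases and GAAA for interferon-response factors. GAGGAA or its reverse complement stood at -237 and 27 from the start site in Tarm1, at -40 in Trem2 and at -39 in Cd300a, and it was also present in the windows of Oscar, Pirb and Cd300lf. The AP-1 letters occurred once, at -9 in Trem2, as TGAATCA with A at the free base N. The kappaB and interferon-response letters were in none of the 6 windows. Over all 32851 promoter windows of this length, 28.3% held GAGGAA, 7.81% the AP-1 letters, 4.79% the kappaB letters and 3.44% the interferon-response letters.

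Tarm1 was much lower in Sept2C111A macrophages. It encodes TARM1, a receptor of T cell-interacting activating type that pairs with the Fc receptor gamma chain, and lies on chromosome 7 at 3486499 to 3502754 (mm10), in the leukocyte receptor cluster. Tarm1 had 4.07, 4.29, 2.85 and 3.17 CPM in Sept2C111A libraries 1 to 4, against 11.7, 9.89, 10.4 and 10.5 CPM in wild-type libraries 1 to 4. Every Sept2C111A library lay below every wild-type library, and the 2 libraries that stood apart over all genes were the highest and the lowest of their group for Tarm1. These levels rest on 56 to 86 reads per Sept2C111A library and 212 to 245 reads per wild-type library. The means were 3.59 ± 0.695 CPM in Sept2C111A and 10.6 ± 0.759 CPM in wild-type macrophages, a ratio of 0.338 and a log2 fold change of -1.56 ± 0.14 (SE). Ranked from the lowest, this was number 9 of the log2 fold changes of the 12462 tested genes. The fold change stayed between -1.65 and -1.47 over the 15 alternative settings. Without Sept2C111A libraries 2 and 3 it was -1.55.

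Oscar, the neighbouring gene of the same cluster, was at the edge of detection. It encodes the osteoclast-associated receptor, a collagen receptor that also pairs with the Fc receptor gamma chain. Oscar had 2, 3, 1 and 2 reads in the Sept2C111A libraries and 1, 1, 3 and 2 reads in the wild-type libraries. The level of 3 reads in a library is 0.140 to 0.159 CPM, so both groups were at or under that floor and no fold change is given. A difference in Oscar was not detectable at this depth, and this limit covers counting error only.

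Trem2 and Tyrobp, a receptor and its adaptor, were both higher in each Sept2C111A library than in any wild-type library, but neither passed the threshold. TREM2 binds lipids, lipoproteins and apoptotic material and signals through DAP12. Trem2 lies on chromosome 17 at 48346401 to 48352276, and it had 757, 900, 1074 and 695 CPM in Sept2C111A libraries 1 to 4, against 656, 593, 643 and 680 CPM in wild-type libraries 1 to 4. Sept2C111A library 4 was only just above the highest wild-type library, while libraries 2 and 3 were far above it. The means were 856 ± 168 CPM in Sept2C111A and 643 ± 36.4 CPM in wild-type macrophages, a log2 fold change of 0.41 ± 0.12 (SE). Without Sept2C111A libraries 2 and 3 the log2 fold change was 0.18. Trem2 passed the threshold in 2 and Tyrobp in 3 of the 15 alternative settings.

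Tyrobp, on the same chromosome as Tarm1 but far from the receptor cluster (30413782 to 30417582), followed Trem2 closely. It had 923, 1134, 1324 and 957 CPM in Sept2C111A libraries 1 to 4, against 835, 816, 874 and 921 CPM in wild-type libraries 1 to 4. Library 1 of the Sept2C111A group and library 4 of the wild-type group were nearly level. The means were 1084 ± 185 CPM in Sept2C111A and 862 ± 46.3 CPM in wild-type macrophages, with a log2 fold change of 0.33 ± 0.11 (SE), or 0.13 without Sept2C111A libraries 2 and 3. Reads of Trem2 per read of Tyrobp were 0.820, 0.794, 0.811 and 0.726 in Sept2C111A libraries, against 0.786, 0.727, 0.736 and 0.738 in wild-type libraries. These ratios of receptor to adaptor overlapped between the genotypes.

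**Figure D1:**
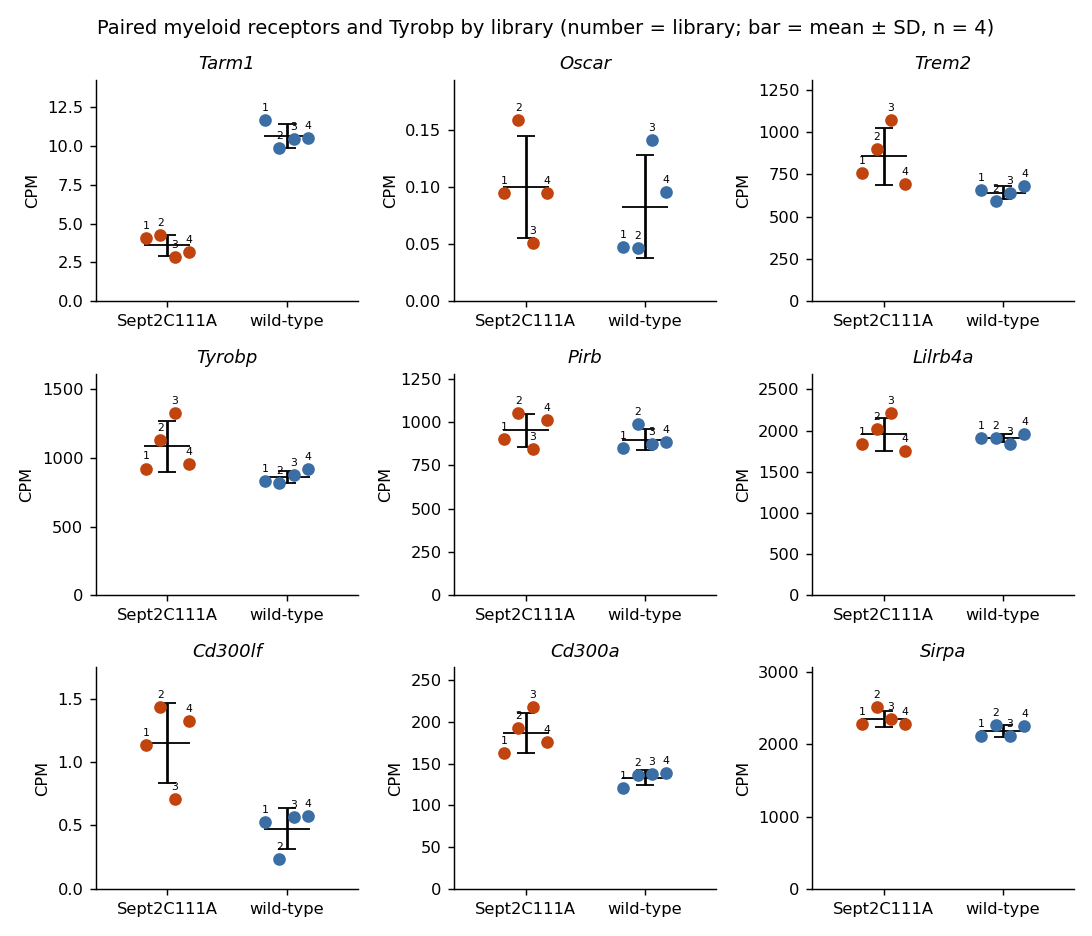
CPM of each of the 9 genes in the 4 Sept2C111A and 4 wild-type libraries (vertical axes start at 0 and differ between panels); points are libraries with their numbers, and bars give the mean ± SD. Tarm1 is at 2.85 to 4.29 CPM in Sept2C111A and 9.89 to 11.7 CPM in wild-type libraries, Sept2C111A libraries 2 and 3 are the highest for Trem2 and Tyrobp, and Oscar stays at the level of single reads.

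Among the inhibitory receptors, the CD300 pair was higher in Sept2C111A macrophages and the other 3 had smaller fold changes. Cd300a, an ITIM receptor for phosphatidylserine and phosphatidylethanolamine on dying cells, lies on chromosome 11 at 114889152 to 114901946. It had 162, 192, 217 and 176 CPM in Sept2C111A libraries 1 to 4, against 120, 136, 138 and 139 CPM in wild-type libraries 1 to 4. The groups did not overlap, and wild-type library 1 was the lowest of all. The means were 187 ± 23.8 CPM in Sept2C111A and 133 ± 8.55 CPM in wild-type macrophages, a log2 fold change of 0.49 ± 0.091 (SE), and 0.34 without Sept2C111A libraries 2 and 3. Cd300a missed the threshold when wild-type library 1 was left out.

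Cd300lf, another inhibitory CD300 receptor that also binds lipids and in mice serves as the norovirus receptor, was barely expressed. It had 1.14, 1.43, 0.712 and 1.32 CPM in Sept2C111A libraries 1 to 4, against 0.525, 0.233, 0.566 and 0.573 CPM in wild-type libraries 1 to 4. These correspond to 13.5 to 27.6 expected reads in Sept2C111A libraries and 5.39 to 11.8 in wild-type libraries. Each Sept2C111A library was above each wild-type library. The log2 fold change was 1.27 ± 0.32 (SE). The filter on low counts asked for 0.482 CPM in at least 4 libraries, a level met by all 4 Sept2C111A and 3 wild-type libraries. Cd300lf lost the threshold in 8 of 14 alternative settings.

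Sirpa, Lilrb4a and Pirb were abundant and close between the genotypes. SIRPα binds CD47, the signal on healthy cells that restrains phagocytosis. Sirpa had 2282, 2510, 2342 and 2276 CPM in Sept2C111A libraries 1 to 4, against 2113, 2269, 2108 and 2252 CPM in wild-type libraries 1 to 4. The groups just failed to overlap, with a log2 fold change of 0.11 ± 0.066 (SE), or 0.061 without Sept2C111A libraries 2 and 3.

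Lilrb4a, the mouse gp49B gene, encodes an ITIM receptor. It had 1840, 2021, 2208 and 1749 CPM in Sept2C111A libraries 1 to 4, against 1913, 1905, 1842 and 1961 CPM in wild-type libraries 1 to 4. The Sept2C111A values fell on both sides of the wild-type ones, with a log2 fold change of 0.04 ± 0.080 (SE). It was -0.09 without Sept2C111A libraries 2 and 3. Pirb, an inhibitory receptor for MHC class I, had 902, 1050, 844 and 1012 CPM in Sept2C111A libraries, against 850, 989, 873 and 884 CPM in wild-type libraries, with a log2 fold change of 0.08 ± 0.085 (SE). The groups overlapped here as well.

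By the call rule used for all genes (edgeR quasi-likelihood test, adjusted p under 0.05), 2 of the 8 tested genes were called higher (Cd300a and Cd300lf), 1 lower (Tarm1) and 5 were not called, beside 6.46% of all tested genes called (3.43% higher and 3.03% lower). Of the same 8 genes, 6 had groups without overlap, 5 higher and 1 lower in Sept2C111A, beside 16.9% of all tested genes (8.47% higher and 8.47% lower). The set was chosen on this contrast, so nothing is read from these shares. Summed, the 9 genes took 6869 to 8014 CPM in Sept2C111A libraries and 6489 to 6847 CPM in wild-type libraries.

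**Figure D2:**
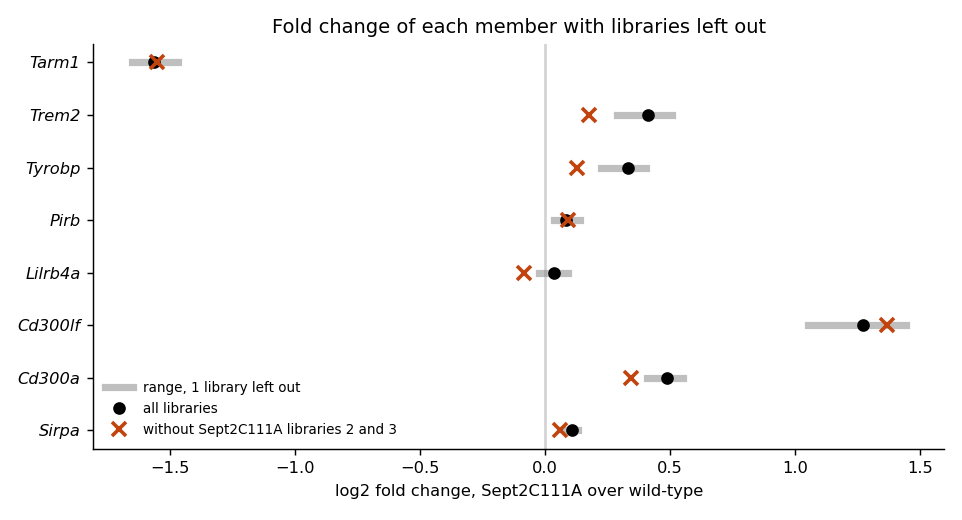
Log2 fold change (Sept2C111A over wild-type) of the 8 tested genes with all libraries (black), the range when each single library is left out (grey), and without Sept2C111A libraries 2 and 3 (crosses). Tarm1 keeps a log2 fold change near -1.56, Trem2 moves to 0.18 and Lilrb4a to -0.09.

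Per kb of transcript (median length of the gene's transcripts), the 9 genes spanned a wide range of levels. In Sept2C111A macrophages the order of mean CPM per kb was Tyrobp (1868 ± 318), Lilrb4a (1614 ± 168), Trem2 (799 ± 157), Sirpa (646 ± 29.9), Pirb (249 ± 25.0), Cd300a (40.3 ± 5.12), Tarm1 (2.42 ± 0.468), Cd300lf (0.617 ± 0.170) and Oscar (0.0547). In wild-type macrophages Lilrb4a (1574 ± 40.5 CPM per kb) stood above Tyrobp (1485 ± 79.8), followed by Trem2 (599.9 ± 33.9) and Sirpa (599.7 ± 23.8), Pirb (235 ± 16.2), Cd300a (28.7 ± 1.84), Tarm1 (7.14 ± 0.510), Cd300lf (0.254 ± 0.0869) and Oscar (0.0454). The ranges of Tyrobp and Lilrb4a overlapped in both genotypes, as did those of Trem2 and Sirpa, so these neighbours did not differ beyond their spread. With the longest transcript instead, Tyrobp led in both genotypes.

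**Figure D3:**
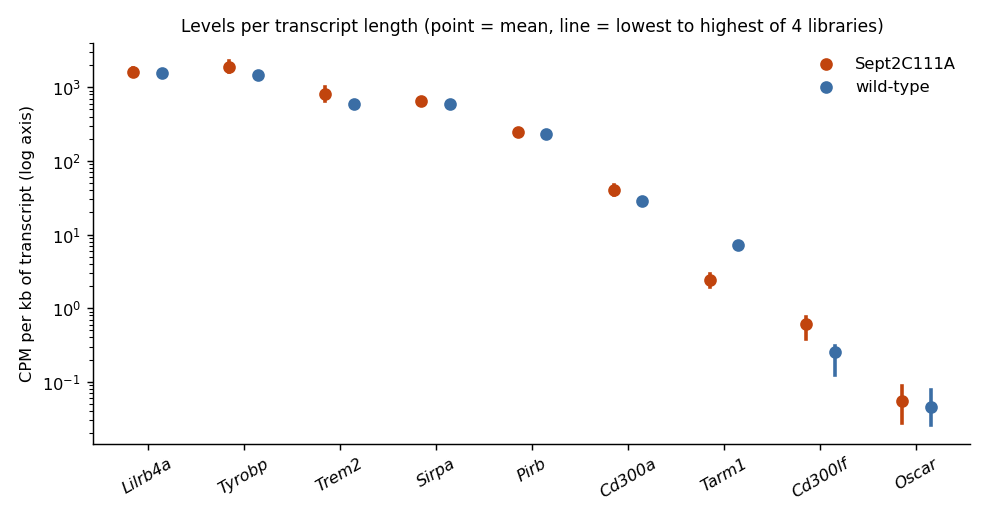
CPM per kb of transcript (log axis) of the 9 genes in Sept2C111A and wild-type macrophages; points are means and lines run from the lowest to the highest of 4 libraries. Lilrb4a and Tyrobp stand at the top and Oscar at the bottom, and Tarm1 is the 1 gene with the Sept2C111A mean below the wild-type mean.

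Some of these receptors have near copies, and the counting model had to divide their reads. Of the 50-base stretches in the transcripts, none of Tarm1, Oscar, Trem2, Tyrobp or Sirpa was shared with another gene, while 37.3% of Pirb (20.7% with Pira2), 6.04% of Cd300lf and 3.28% of Cd300a were. For Lilrb4a 94.5% was shared, 92.5% with the read-through model Gm49339 and 28.5% with its copy Lilr4b. Levels of Pirb and Lilrb4a are therefore uncertain to that extent. Cd300lf shared 4.91% with Cd300ld, which had 207 to 233 CPM in Sept2C111A and 186 to 201 CPM in wild-type libraries. Against that, Cd300lf had only 5.39 to 27.6 expected reads per library, and its counts were whole in 0 of 8 libraries. How far reads divided with Cd300ld enter the Cd300lf counts was not tested. Lilr4b averaged 685 ± 64.4 CPM in Sept2C111A and 680 ± 13.6 CPM in wild-type macrophages (log2 fold change 0.01, or -0.10 without Sept2C111A libraries 2 and 3, adjusted p = 0.95 in edgeR with all libraries). Pira1 averaged 10.3 ± 3.75 and 11.0 ± 2.22 CPM, and Pira2 averaged 23.9 ± 2.54 and 20.6 ± 3.27 CPM, in Sept2C111A and wild-type macrophages, and neither was called (adjusted p = 0.85 and 0.31 in edgeR).

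The other paired receptors were examined by genomic cluster. Of 38 listed, 26 were tested, and 6 were higher, 2 lower and 18 not past the threshold in Sept2C111A macrophages, beside 3.43% higher and 3.03% lower among all tested genes. Their median log2 fold change was 0.18, beside 0.01 over all tested genes. In the leukocyte receptor cluster that holds Tarm1, Oscar and Pirb, 0 of the 5 other tested genes (Pira1, Pira2, Lilra6, Lair1 and Lilra5) were called in edgeR, with 0 at an unadjusted p under 0.05, where 24.8% of all tested genes were, and with 0 calls by either DESeq2 or limma voom.

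In the TREM cluster around Trem2, 1 neighbour was higher and 1 lower. Treml2, an Ig-type receptor of the TREM family, had 2.41, 3.76, 3.92 and 2.84 CPM in Sept2C111A libraries, against 1.34, 1.07, 0.943 and 1.10 CPM in wild-type libraries. The groups lay far apart, with a log2 fold change of 1.53 ± 0.21 (SE, adjusted p = 0.0021 in edgeR). Treml4, an activating DAP12 partner, was lower at 8.60 ± 0.632 against 12.8 ± 0.755 CPM, a log2 fold change of -0.57 ± 0.088 (SE, adjusted p = 0.0044 in edgeR). Trem1 and Treml1 were not called.

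The Sirpb1 cluster on chromosome 3 holds activating relatives of Sirpa that signal through DAP12, and all 3 tested genes were higher. Sirpb1c had 14.0, 16.9, 16.3 and 15.9 CPM in Sept2C111A libraries, against 8.63, 9.89, 9.86 and 10.1 CPM in wild-type libraries (log2 fold change 0.71 ± 0.090 SE, adjusted p = 0.0014 in edgeR). Sirpb1a averaged 5.83 ± 1.39 CPM in Sept2C111A and 3.08 ± 0.268 CPM in wild-type macrophages (0.92 ± 0.17 SE, adjusted p = 0.012 in edgeR). Sirpb1b, which was chosen after its values were seen, averaged 7.62 ± 1.00 and 4.20 ± 0.930 CPM in Sept2C111A and wild-type macrophages (log2 fold change 0.86, adjusted p = 0.015 in edgeR). The Sirpb1 genes resemble one another in sequence, so their split of reads is uncertain.

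Outside these clusters, Clec5a, a lectin receptor that uses DAP12, was lower at 64.9 ± 6.18 CPM in Sept2C111A against 91.1 ± 5.83 CPM in wild-type macrophages (log2 fold change -0.49 ± 0.079 SE, adjusted p = 0.0055 in edgeR). The remaining 2 called genes were named after their values were seen. Cd300c2, in the cluster of Cd300a, averaged 164 ± 16.8 CPM in Sept2C111A and 127 ± 4.10 CPM in wild-type macrophages (0.36, adjusted p = 0.019 in edgeR). It lost its call in 6 of 15 alternative settings. Cd200r1, an inhibitory receptor for CD200, averaged 43.7 ± 4.26 CPM in Sept2C111A and 34.0 ± 1.78 CPM in wild-type macrophages (0.36, adjusted p = 0.024 in edgeR) and lost its call in 4 of 15. Receptors that use DAP12 were among both the higher and the lower genes.

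**Figure D4:**
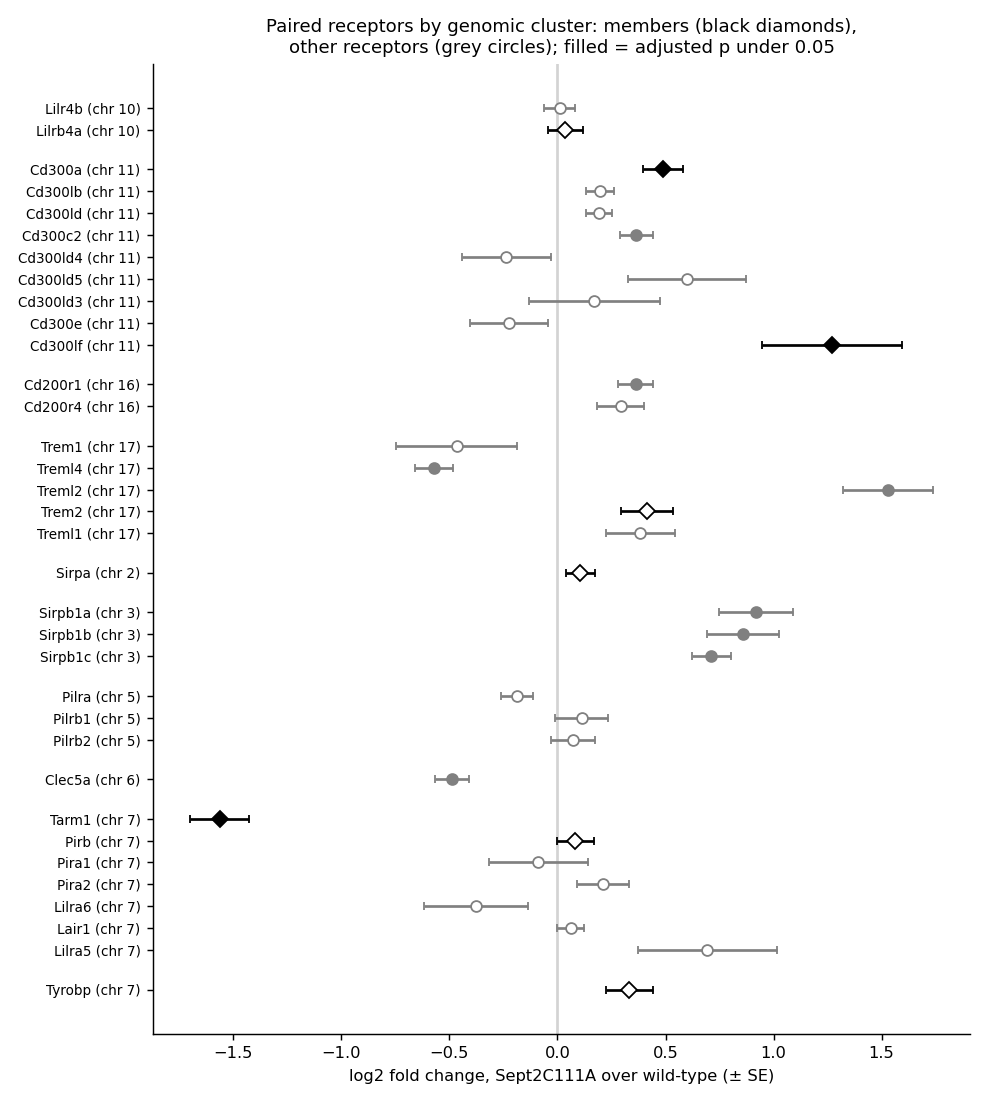
Log2 fold change ± SE (Sept2C111A over wild-type) of the 8 tested genes of the set (black diamonds) and 26 other paired receptors (grey circles) by chromosome; filled symbols have an adjusted p under 0.05. Tarm1 stands at -1.56 beside unfilled neighbours of its cluster, and the 3 Sirpb1 genes lie between 0.71 and 0.92.

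Of 27 tested adaptor, kinase and phosphatase genes that act below the receptors, 0 were higher and 1 was lower, near the 6.46% called among all tested genes. The lower gene was Malt1, the paracaspase of the CARD9-BCL10 complex, with 30.7, 26.2, 20.2 and 27.0 CPM in Sept2C111A libraries, against 41.9, 42.0, 40.5 and 41.3 CPM in wild-type libraries (log2 fold change -0.67 ± 0.11 SE, adjusted p = 0.0050 in edgeR). Fcer1g, the gamma chain that partners TARM1 and OSCAR, averaged 2377 ± 428 CPM in Sept2C111A and 1941 ± 70.7 CPM in wild-type macrophages (0.29, adjusted p = 0.15 in edgeR). It too was highest in Sept2C111A libraries 2 and 3, at 2644 and 2829 CPM, and its log2 fold change without them was 0.055.

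Of 21 ligand and sheddase genes 19 were tested, and 5 were higher and 1 lower in Sept2C111A macrophages, beside 3.43% higher and 3.03% lower among all tested genes, with a median log2 fold change of -0.25 beside 0.01 over all tested genes, and 8 of the 19 fold changes were above 0. B2m, the light chain of MHC class I and so of the PIR-B ligand, had 4357, 5218, 4886 and 4809 CPM in Sept2C111A libraries, against 3032, 3157, 2983 and 3123 CPM in wild-type libraries (0.65 ± 0.073 SE, adjusted p = 0.00078 in edgeR). The heavy chain genes H2-D1 (4970 ± 650 against 3129 ± 131 CPM, adjusted p = 0.0026) and H2-K1 (2494 ± 475 against 1563 ± 108 CPM, adjusted p = 0.011) were each higher by 0.67 on the log2 scale in edgeR, with reads that near copies can share. Without Sept2C111A libraries 2 and 3 the log2 fold change of H2-K1 was 0.42.

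Of 5 listed TREM2 ligands, Apoe and Lgals3 were higher and the other 3 were not called. Apoe, apolipoprotein E, averaged 30443 ± 6925 CPM in Sept2C111A and 19749 ± 965 CPM in wild-type macrophages (log2 fold change 0.62 ± 0.14 SE, adjusted p = 0.027 in edgeR). Its adjusted p was 0.072 to 0.090 without Sept2C111A library 2 or any single wild-type library, and the log2 fold change was 0.37 without Sept2C111A libraries 2 and 3. Lgals3, galectin 3, averaged 2840 ± 518 and 2030 ± 104 CPM in Sept2C111A and wild-type macrophages (0.48, adjusted p = 0.033 in edgeR) and lost its call in 6 of 15 alternative settings, with a log2 fold change of 0.27 without Sept2C111A libraries 2 and 3. The other 3, named after their values were seen, had log2 fold changes below 0: clusterin, Clu (-0.37, adjusted p = 0.35 in edgeR), the amyloid precursor App (-0.15, adjusted p = 0.30 in edgeR) and the cytokine Il34 (-0.36, adjusted p = 0.41 in edgeR). In Sept2C111A libraries 1 and 4 against all wild-type libraries, Clu averaged 1.23 and 1.86 CPM, App 1052 and 1077 CPM, and Il34 0.922 and 1.02 CPM. Cd47, the ligand of SIRPα, averaged 132 and 122 CPM in Sept2C111A and wild-type macrophages (adjusted p = 0.31 in edgeR). The sheddase gene Adam17 averaged 374 and 445 CPM in Sept2C111A and wild-type macrophages (adjusted p = 0.095 in edgeR). In Sept2C111A libraries 1 and 4 alone, Cd47 averaged 125 CPM and Adam17 400 CPM. Col1a1, whose collagen is a ligand of OSCAR and which is also a stromal marker here, averaged 1545 ± 168 CPM in Sept2C111A and 2056 ± 257 CPM in wild-type macrophages (-0.41, adjusted p = 0.045 in edgeR), but the groups overlapped and the call was lost in 7 of 15 alternative settings.

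Of 22 genes tied to TREM2 in lipid handling and lysosomes, 5 were higher, 1 lower and 16 not past the threshold. Among all tested genes 3.43% were higher and 3.03% lower. The median log2 fold change of the list was 0.18, and 13 of the 22 were above 0. Lpl, Spp1, Itgax, Cst7, Cd9 and Ch25h, named after their values were seen, had fold changes below 0 and were not called. Clec7a, the beta-glucan receptor Dectin-1, had 85.7, 87.3, 88.9 and 95.5 CPM in Sept2C111A libraries, against 62.5, 70.6, 56.0 and 56.4 CPM in wild-type libraries (0.54 ± 0.082 SE, adjusted p = 0.0039 in edgeR). Fabp5, a fatty acid carrier, averaged 219 ± 34.2 and 146 ± 12.4 CPM in Sept2C111A and wild-type macrophages (0.59, adjusted p = 0.012 in edgeR). Both kept their calls in all 15 alternative settings. The lysosomal protease Ctsb (0.42, adjusted p = 0.022), the membrane glycoprotein Gpnmb (0.35, adjusted p = 0.027) and the growth factor Csf1 (-0.56, adjusted p = 0.035) passed in edgeR but lost the call in 6 of 15 settings each, among them the loss of any single wild-type library. Without Sept2C111A libraries 2 and 3 the log2 fold changes were 0.28 for Ctsb and -0.30 for Csf1. Ctsl, named after its value was seen, was higher by 0.25 (adjusted p = 0.041 in edgeR) and lost its call in 8 of 15.

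The osteoclast programme, which DAP12 and OSCAR serve in bone, had 14 tested genes, and 0 were called in edgeR, beside 6.46% of all tested genes. Unadjusted p-values under 0.05 numbered 5, beside 24.8% of all tested genes, DESeq2 called 1 gene and limma voom 0. The 2 most abundant were Tcirg1 (521 ± 49.7 CPM in Sept2C111A and 475 ± 16.7 CPM in wild-type macrophages) and Clcn7 (283 ± 22.5 and 272 ± 15.1 CPM in Sept2C111A and wild-type macrophages), with adjusted p = 0.31 and 0.67 in edgeR. In Sept2C111A libraries 1 and 4 alone, Tcirg1 averaged 481 CPM.

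The genes whose log2 CPM most resembled Tarm1 over the 8 libraries were Tnf, Slc12a4, Gpr84, Itga5 and Tnfsf9, with Pearson r = 0.997, 0.991, 0.991, 0.990 and 0.985. Likeness was taken among 9455 genes that averaged 5 CPM or more, and since the genotypes differ, it mostly measures the gap between them. Tnf, the cytokine also added to the cultures, had 313, 317, 250.2 and 255 CPM in Sept2C111A libraries 1 to 4, against 517, 487, 495 and 509 CPM in wild-type libraries 1 to 4. Its values followed those of Tarm1 library by library, with r = 0.967 after the mean of each genotype was taken away. For the other 4 genes that r was 0.714 to 0.850. All 5 were picked by r over these same libraries, so their r within genotypes is partly set by that choice.

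The 5 genes most like Trem2 were Spsb2, Dhrs3, Haus8, Pmm2 and Plekho1, with r = 0.993 to 0.996, and 0.988 to 0.992 after the genotype means were taken away. Trem2 and Tyrobp had r = 0.976 and 0.950 by the same measures. Dhrs3, a retinaldehyde reductase, averaged 327 ± 74.6 CPM in Sept2C111A and 227 ± 16.9 CPM in wild-type macrophages, a log2 fold change of 0.53, or 0.25 without Sept2C111A libraries 2 and 3. For Plekho1 the log2 fold change was 0.455, or 0.216 without those 2 libraries. Sept2C111A libraries 2 and 3 were the highest of all 8 libraries for Trem2 and for each of these 5 genes. The 5 genes were again picked by r over these same libraries, which partly sets their r within genotypes. All these values are descriptions of 8 libraries that share depth and composition differences, and no test was made.

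**Figure D5:**
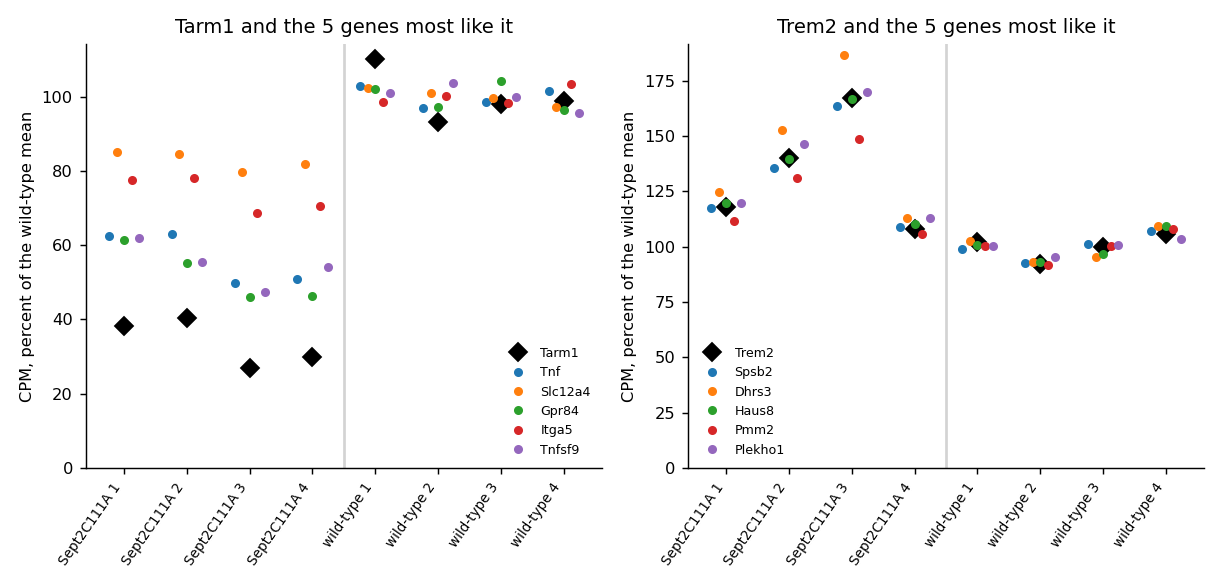
CPM as a percentage of the wild-type mean in each library for Tarm1 with the 5 genes most like it (left) and Trem2 with its 5 (right); black diamonds are Tarm1 and Trem2, coloured points the other genes. Tarm1 has the lowest percentage of its set in all 4 Sept2C111A libraries, and the genes like Trem2 all peak in Sept2C111A library 3.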

How the data were processed

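Poly(A)-selected RNA of TNF-treated bone-marrow-derived macrophages was sequenced in 4 Sept2C111A and 4 wild-type libraries. The files deposited by the authors hold an expected count for each gene symbol and library, which can share out reads that match several genes. The tools Bowtie2, RSEM 1.3.1 and DESeq2 1.4.5 and the build mm10 are named per the submitters' processing notes, without their roles. No source used here names the annotation or the strandedness.

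Expected counts were rounded to whole numbers. Genes were kept with filterByExpr at a minimum count of 10, normalized by trimmed mean of M values and compared with edgeR 4.0.16 (R 4.3.3) by its two-sided quasi-likelihood test. Genotype was the only term, and p-values were adjusted by Benjamini-Hochberg over 12462 genes, with a threshold of 0.05. CPM values are on normalized library sizes. Standard errors were obtained from each fold change and the root of its F value. Alternatives used DESeq2 1.42.0, limma 3.58.1, other filters and libraries left out. The smallest mean chi-square per gene between any pair of libraries was 3.87, so no library was a copy of another.

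The 9 receptor genes and the lists, 191 entries of which 175 were found in the files, were chosen with earlier results of these data known, and the remaining entries were not analysed here. Named genes were the 9, Septin2, up to 5 called genes with the smallest adjusted p per list (otherwise the 2 most abundant), the most abundant gene per cell type list, near copies of Pirb and Lilrb4a, and the 5 genes most like Tarm1 and Trem2. Same-numbered libraries had correlated deviations of 0.137, 0.0956, -0.0230 and -0.237, which show no pairing by number. So few values cannot exclude pairing, and the labels do not state it. Start-site windows are from RefSeq, lengths and shared stretches from GENCODE transcripts of the same assembly.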

Additional observations from a re-analysis of the deposited data

Results flagged for a closer look

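In 6 of 82 groups of 4 libraries examined, 1 library lay farther from the other 3 than Dixon's critical value of 0.829 (the gap divided by the range) allows. Chance gives about 1 in 20, or 4.1 of 82.

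Cd300lf had 0.233 CPM in wild-type library 2, against 0.525 to 0.573 CPM in the other wild-type libraries. Cd300a had 120 CPM in wild-type library 1, with 136 to 139 CPM in the others of that group. In the same library Sirpb1c was at 8.63 CPM (the others 9.86 to 10.1 CPM) and Pira2 at 15.7 CPM (the others 22.1 to 22.6 CPM). Fabp5 was at 127 CPM in wild-type library 2, with 150.1 to 154 CPM in the others. Clcn7 was at 249 CPM in Sept2C111A library 3, with 293 to 295 CPM in the others of that group. Each of these libraries was the lowest of its group for its gene.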

How the results depend on the processing

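The log2 fold change of Tarm1 was -1.65 to -1.47 over the 15 alternatives. Over all genes 805 were called, 494 with the replicate block, 1450 with DESeq2, 492 without Sept2C111A libraries 2 and 3, and 266 (without wild-type library 3) to 2077 (without Sept2C111A library 4) when 1 library was left out. Of the 9 receptor genes 3 were called, 5 with DESeq2, and 1 (without wild-type library 1) to 5 (without Sept2C111A library 4) with 1 library left out. The other paired receptors had 8 calls, 5 with the replicate block, and 6 to 11. The signalling list had 1, 4 with DESeq2, and 1 to 5. The ligand list had 6, and 3 to 12. The TREM2 list had 6, 13 with DESeq2, and 2 to 11. The osteoclast list had 0, and 1 with the replicate block, with DESeq2 and without Sept2C111A libraries 2 and 3, and 0 to 2 with 1 left out. The cause was not tested.

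The replicate block also ended the calls of Sirpb1b, Cd300c2 and Cd200r1. Direction turned for Lilrb4a (-0.025 without Sept2C111A library 3, -0.086 without libraries 2 and 3 of that group), for Lilr4b (-0.048 to 0.059 with 1 library left out, -0.10 without Sept2C111A libraries 2 and 3) and for Pira1 (-0.35 to 0.057 with 1 library left out, 0.25 without Sept2C111A libraries 2 and 3), none of which was called. Among the named genes outside the receptor set, 420 of 480 refits kept direction and side of the threshold, 46 lost and 8 gained a call. Among the receptor set 103 of 119 did so, 9 lost and 5 gained a call and 2 turned. Trem2, Tyrobp and Lilrb4a moved by more than their spread without Sept2C111A libraries 2 and 3. Cd300lf had no value with a minimum of 1 CPM in 4 libraries. Depth limits Oscar and Cd300lf most.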
